A study of Mus musculus with 31 samples.

Results

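Lungs taken 4 h after an injection of oleic acid into the tail vein were compared with lungs taken 4 h after saline. This comparison uses 5 of the 31 arrays of the series, chosen by treatment and time as labelled: 3 oleic acid mice and 2 saline mice, with 1 mouse on each array. All mice were C57BL/6 females aged 6 weeks, anaesthetised with xylazine and ketamine. The oleic acid mice received 1.2 µl of oleic acid per g of body weight in 200 µl, and the saline mice received 200 µl of physiological serum, so anaesthesia and injection were common to both groups. The other 26 arrays come from the same treatments at 1, 1.5, 3, 18 and 24 h. The measurement is RNA of whole lung, so fewer cells of a type and less RNA per cell cannot be told apart.

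Oleic acid is a monounsaturated fatty acid. Given into a vein, it reaches the capillaries of the lung first, where it damages the endothelium, and fluid then leaks into the alveoli; it is used for that reason to model acute lung injury. Injured lung is known for the release of cytokines such as IL-6 and TNF and of chemokines that draw neutrophils, under the control of the transcription factor NF-kappaB. Fatty acids also bind PPAR nuclear receptors, which switch on genes for fatty acid burning and storage such as Pdk4, Cpt1a, Angptl4 and Plin2.

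The 5 arrays lay on 1 slide of 8 and were similar in quality. Signal increased with the amount of spike-in RNA with slopes of 1.00 to 1.04, from 51.2% to 57.4% of spots were well above background and 0 spots were saturated. Correlations between arrays lay between 0.963 and 0.981 across genes. Expression is given as a level, which is the log2 processed signal minus the 75th percentile of the same array, so a step of 1 is a doubling and levels of different genes are not compared. That percentile was 279 and 272 signal units on the saline arrays and 431, 252 and 472 on the oleic acid arrays, so oleic acid mice 1 and 3 had brighter arrays than the other 3 mice. Lung markers were high on every array. Sftpc, the surfactant protein of alveolar type 2 cells, read 10.24 and 10.22 on the saline arrays and 9.63, 10.33 and 9.54 on the oleic acid arrays. Scgb1a1, the secretory protein of club cells, read 10.32 and 10.33 on the saline arrays and 9.73, 10.43 and 9.65 on the oleic acid arrays. These defining lung markers were thus present throughout, and for both the 2 brighter arrays gave the lowest levels.

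Mice of 1 group lay about as far apart as the groups did. Across 13304 genes the median size of the gap between the 2 saline mice was 0.283, and that between oleic acid mice 1 and 2 was 0.300. Oleic acid mice 1 and 3 were closer, at 0.155, whereas the median size of the difference between the group means, which averages over mice, was 0.211. The number of arrays therefore limits the precision, and the labels do not say whether mice of 1 group were injected or processed on the same day.

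Of 26225 genes and unnamed transcripts tested, 15705 had a current gene symbol. In limma, with the spread of each gene estimated over all 12 groups of treatment and time, 0 features (0%) were higher with oleic acid and 1 (0.00381%) was lower at a Benjamini-Hochberg adjusted p under 0.05. At an unadjusted p under 0.05, 808 features (3.08%) were higher and 1316 (5.02%) were lower, or 8.1% in either direction. Among genes with a symbol the smallest adjusted p was 0.0558. The count of 1 depended on single mice. Without saline mouse 1 it was 28, without saline mouse 2 it was 4, and without oleic acid mouse 1 or 2 it was 10 each; without oleic acid mouse 3 it was 1. With 1 saline mouse left out, the remaining mouse is assumed to vary like the other groups.

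The levels as a whole were slightly lower with oleic acid. The median difference, oleic acid minus saline, was -0.09 over all features, 38.8% of differences lay above 0, and the median standard error was 0.280. Every oleic acid array lay above both saline arrays for 2034 features (7.76%) and below both for 3836 features (14.6%). When the features were ranked by level and split into groups of 5245, the median difference was -0.17 in the group with the highest levels and -0.04 in the group around the middle. After quantile normalization these were -0.03 and -0.05.

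The 1 feature that passed the adjusted threshold was an unnamed probe of 60 bases, A_55_P1960246, at positions 13109 to 13168 of the unplaced sequence 4_random of mm9. Its sequence is shown because it shares a run of 34 bases, in capitals, with A_55_P2137701, the probe of the gene model Gm13138 on chromosome 4 at 145889494 to 145889553 (mm9).
A_55_P1960246: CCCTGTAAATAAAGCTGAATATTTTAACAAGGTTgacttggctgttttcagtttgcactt
The probe read -2.76 and -3.30 on the saline arrays and -6.53, -5.31 and -6.03 on the oleic acid arrays. The difference was -2.93 (95% interval -3.62 to -2.24, adjusted p = 0.000855 in limma). With the 5 arrays of 4 h alone the adjusted p was 0.805 in limma. The probe was well above background on both saline arrays and on 0 of 3 oleic acid arrays, so it passed the filter through the saline arrays alone. The interval is therefore no exact size, and the bound is at least 2.13-fold lower with oleic acid. On the 24 arrays of other times used in the fit the probe was above background on 0, with levels of -7.46 to -6.02. Its spread was thus estimated largely on values not above background, and the 2 saline mice of 4 h stood apart from the other saline mice as well. Against the saline mice of 1 to 4 h together the difference was -0.08 (adjusted p = 0.991 in limma). The Gm13138 probe, which holds the same 34 bases, read -0.40 and -0.81 on the saline arrays and -0.61, -0.53 and -0.83 on the oleic acid arrays, with the groups overlapping.

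Among the largest gaps between the groups were 7 further unnamed probes with similar sequences, at chromosome 9 from 3003722 to 3038316 and chromosome 2 from 98507014 to 98507154 (mm9). They were singled out after their values were seen. Their sequences are shown because all 7 separated the groups by a similar amount; capitals mark runs of 12 or more bases that at least 3 of the 7 share.
A_55_P1978636: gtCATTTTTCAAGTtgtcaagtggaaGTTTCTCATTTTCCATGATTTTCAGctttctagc
A_55_P2093862: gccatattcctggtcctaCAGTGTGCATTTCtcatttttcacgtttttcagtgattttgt
A_55_P2138100: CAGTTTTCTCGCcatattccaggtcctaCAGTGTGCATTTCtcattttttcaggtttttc
A_55_P2138104: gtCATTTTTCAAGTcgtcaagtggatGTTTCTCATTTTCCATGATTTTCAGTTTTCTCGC
A_55_P2165554: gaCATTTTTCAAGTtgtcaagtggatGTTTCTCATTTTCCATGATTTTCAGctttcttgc
A_55_P2465382: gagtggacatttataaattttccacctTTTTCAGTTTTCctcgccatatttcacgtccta
A_66_P124164: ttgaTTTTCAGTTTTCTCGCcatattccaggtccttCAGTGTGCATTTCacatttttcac
Because of the shared runs these probes are not independent measurements.

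The mean level of the 7 probes was 3.07 and 3.04 on the saline arrays and 0.91, 0.84 and -0.66 on the oleic acid arrays. Their differences lay between -3.03 and -2.54, with adjusted p from 0.13 to 0.463 in limma, so 0 of 7 passed. With slide as a fixed term 5 of 7 passed, with a smallest adjusted p of 0.0493 in limma. Without oleic acid mouse 3, which had the lowest mean of all 29 arrays in the fit, the median of the 7 differences was -2.14 in place of -2.66. Saline arrays of other times lay between 0.92 and 2.86 and oleic acid arrays between 0.79 and 3.75, so both saline mice of 4 h lay above every other saline mouse. The highest array of all was an oleic acid mouse of 3 h on the same slide. Against the saline mice of 1 to 4 h together the median difference was -1.75.

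**Figure D1:**
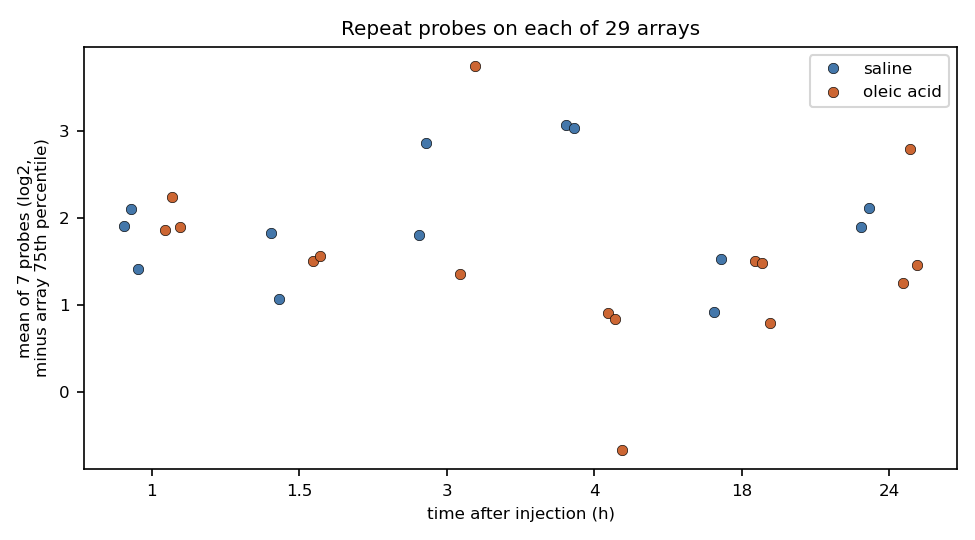
Mean level (log2 processed signal minus the array's 75th percentile, y axis) of the 7 unnamed probes on each array by time in hours (x axis), 1 point per mouse. At 4 h the saline mice sit at 3.07 and 3.04 and the oleic acid mice at 0.91, 0.84 and -0.66, whereas the treatments overlap over the other times.

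The plot of these probes by time shows that the separation at 4 h comes from high saline mice and low oleic acid mice alike, within the range that single arrays of other times reached, except for oleic acid mouse 3.

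Genes with a symbol were ranked by unadjusted p among those whose groups did not overlap, and the 12 highest and 12 lowest are described as values, since 0 of these 24 passed the adjusted threshold. Naa15, a subunit of the complex that acetylates the amino end of new proteins, stood first. It lies on chromosome 3, where its probe covers 51277661 to 51277719 (mm9), and read -0.72 and -0.36 on the saline arrays and 0.62, 0.53 and 0.71 on the oleic acid arrays. The difference was 1.16 (95% interval 0.76 to 1.56, adjusted p = 0.0558 in limma), and the level in oleic acid mouse 3 was the highest of 29 arrays. Naa15 passed the threshold in the authors' deposited table, with slide as a fixed term and with array weights. Among other times, saline arrays ran from -0.11 to 0.56, so both saline mice of 4 h were below all other saline mice.

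Tyw3, an enzyme that modifies transfer RNA, read -5.32 and -6.19 on the saline arrays and -3.69, -3.17 and -3.29 on the oleic acid arrays. It was not well above background on either saline array, which gives at least 1.78-fold more with oleic acid (adjusted p = 0.0558 in limma). Tyw3 passed without oleic acid mouse 1 (adjusted p = 0.0442 in limma), and without saline mouse 1 its difference was 2.81. Ube2q2, a ubiquitin-conjugating enzyme, read -0.56 and -0.69 on the saline arrays and 0.36, 0.20 and 0.42 on the oleic acid arrays, a difference of 0.95 (95% interval 0.57 to 1.34, adjusted p = 0.13 in limma). Saline arrays of other times ran from -0.35 to 0.33, so both saline mice of 4 h were below all other saline mice. A second probe of Ube2q2 gave -0.42. Eri2, an exonuclease family member, read -3.46 and -3.04 with saline against -1.57, -1.74 and -1.75 with oleic acid. The zinc finger genes Zfp874a and Zfp273 differed by 1.34 and 0.82. Thoc2, of the THO complex that carries messenger RNA out of the nucleus, differed by 0.63, and its other probe by -0.17.

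Signalling and extracellular genes made up the rest of the higher set. Chac1, which breaks down glutathione and is a target of the integrated stress response, read 1.46 and -0.09 on the saline arrays and 1.76, 2.13 and 2.63 on the oleic acid arrays. Its difference was 1.49 (95% interval 0.78 to 2.19, adjusted p = 0.326 in limma), and saline mouse 2 was the lowest of the 5 mice, while saline mouse 1 lay above all other saline arrays. Without saline mouse 1 the difference was 2.26, and against the saline mice of 1 to 4 h together it was 2.08 (adjusted p = 0.00334 in limma). Cxcl13, the chemokine that draws B cells into lymphoid follicles, read -3.49 and -3.64 on the saline arrays and -1.01, -2.69 and 0.58 on the oleic acid arrays. The oleic acid mice thus spanned more than 3 log2 steps between them, around a difference of 2.53 (95% interval 1.19 to 3.87, adjusted p = 0.463 in limma). Without oleic acid mouse 2 it was 3.35 (adjusted p = 0.0351 in limma). Rgs5, a regulator of G protein signalling found in pericytes, read -3.36 and -3.99 with saline against -2.17, -3.02 and -1.63 with oleic acid and was above background on 1 of 2 saline arrays. Adamts9, a secreted protease of the extracellular matrix, read 0.80 and 1.11 with saline against 1.91, 1.71 and 1.39 with oleic acid. Map2, a microtubule protein best known from neurons, differed by 1.43, but its other probe gave -0.51.

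Of the 12 genes with the lower values, Veph1 had the smallest p. Veph1 encodes a membrane-binding protein and read -1.55 and -1.48 on the saline arrays and -2.28, -2.21 and -2.78 on the oleic acid arrays, a difference of -0.90 (95% interval -1.34 to -0.47, adjusted p = 0.326 in limma). Il11, a cytokine of the IL-6 family, was tight within groups, with -2.25 and -2.27 with saline against -3.13, -2.89 and -2.88 with oleic acid (adjusted p = 0.386 in limma). At other times saline arrays ran from -2.90 to -2.42 for Il11 and oleic acid arrays from -3.04 to -2.36, so both saline mice of 4 h lay above all of these. Rxra, the receptor that pairs with PPARs and other nuclear receptors, read -2.18 and -2.33 with saline against -3.29, -2.82 and -2.94 with oleic acid. Each of these 3 genes had both saline arrays above all oleic acid arrays by more than the gap between the saline mice.

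Robo2, a receptor for Slit guidance cues, read 0.23 and 0.46 with saline against -0.29, -0.04 and -0.59 with oleic acid. At other times saline arrays ran from -0.90 to -0.06 for Robo2 and oleic acid arrays from -0.80 to -0.23. Both saline mice of 4 h thus lay above all of these. Ppp2r5d, a regulatory subunit of protein phosphatase PP2A, read 3.44 and 3.41 with saline against 2.69, 2.97 and 2.56 with oleic acid. Haus8, of the augmin complex of the mitotic spindle, read 2.44 and 2.35 with saline against 1.58, 1.89 and 1.72 with oleic acid. Both of the last genes varied little between saline mice. Among the remaining genes, differences were -0.85 for Paqr6, a membrane progestin receptor, -0.61 for the zinc finger gene Zfp41, -0.75 for the G protein regulator Rgs9, -0.82 for the homeobox gene Lbx2 and -1.26 for Palm3. Palm3 was above background on 0 of 3 oleic acid arrays, which gives at least 1.57-fold less. Without saline mouse 2 the difference of Paqr6 was -1.28.

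Of these 24 genes, 9 had more than 1 kept probe. All probes had the same sign for 3 of them and mixed signs for 6. Beside Ube2q2, Thoc2 and Map2 these were Paqr6, Ppp2r5d and Robo2. Their probes of the other sign gave 0.03, 0.04 and 0.05, and a further probe of Paqr6 gave -0.52.

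**Figure D2:**
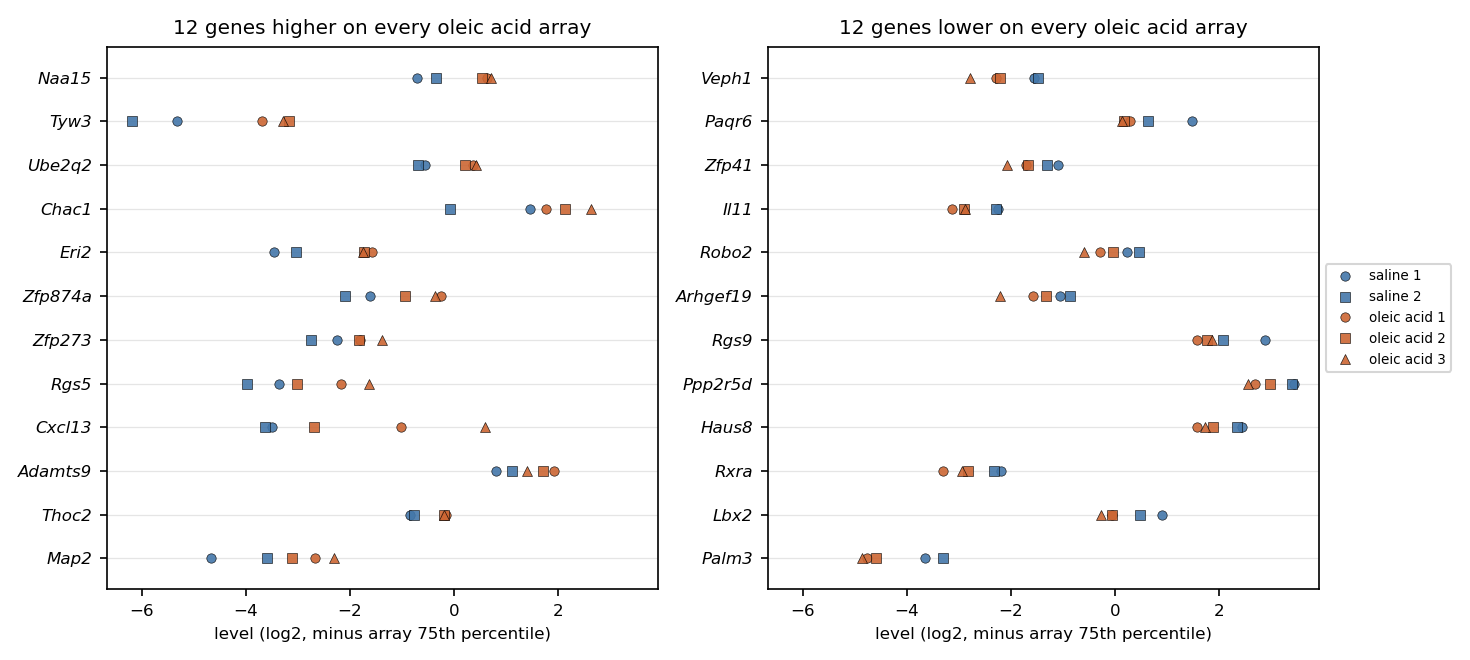
Level (log2 processed signal minus the array's 75th percentile) of the 24 genes with the smallest unadjusted p without overlap, 12 higher and 12 lower with oleic acid, with 1 point per mouse. Naa15 lies between 0.53 and 0.71 in the oleic acid mice and at -0.72 and -0.36 in the saline mice, and Cxcl13 spreads from -2.69 to 0.58 with oleic acid.

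The plot of single mice shows gaps between the groups for all 24, as their selection required, and wide scatter within the oleic acid group for Cxcl13 and Rgs5.

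Among cytokine and chemokine genes 0 passed the adjusted threshold at 4 h, and 1 control animal stood apart: saline mouse 2 had the highest level of many of them in the whole fit. Cxcl1, a neutrophil chemokine, read -6.46 and 0.81 on the saline arrays and -5.69, -5.16 and -4.25 on the oleic acid arrays. Il6, the acute cytokine, read -5.50 and -0.16 on the saline arrays and -5.22, -4.09 and -4.48 on the oleic acid arrays. Cxcl2, a close relative of Cxcl1, read -6.36 and -2.18 on the saline arrays and -5.50, -5.62 and -5.22 on the oleic acid arrays. These 3 genes and Csf3, the granulocyte growth factor, were above background on saline mouse 2 alone among the 5 arrays and so fell short of the filter for testing. Csf3 read -6.34 and -2.68 on the saline arrays and -6.72, -5.73 and -6.19 on the oleic acid arrays. For all 4 genes saline mouse 2 was the highest of the 29 arrays.

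Among the measured chemokines and cytokines, Ccl2, Tnf, Ccl3 and Il1b were also highest in saline mouse 2 of the 5 mice. Others were not: Cxcl13 was lowest in saline mouse 2 (-3.64), and Ifng was highest in oleic acid mouse 1. Ccl2, which draws monocytes, read -3.45 and 0.73 on the saline arrays and -2.47, -2.85 and -2.18 on the oleic acid arrays. Tnf, the early cytokine of macrophages, read -4.65 and -0.74 on the saline arrays and -2.95, -3.88 and -3.82 on the oleic acid arrays. Ccl3, a macrophage chemokine, read -4.24 and -0.95 on the saline arrays and -3.51, -4.03 and -4.70 on the oleic acid arrays. In each, saline mouse 1 and the oleic acid mice lay close together, or the oleic acid mice lay above saline mouse 1, and saline mouse 2 lay far above. Tnf and Ccl3 were not well above background on all 5 arrays, so their differences are no exact sizes. The difference of Ccl2 was -1.14 (95% interval -2.63 to 0.35, adjusted p = 0.648 in limma). Without saline mouse 2 it was 0.95, and without saline mouse 1, which leaves saline mouse 2 as the only control, it was -3.23. The difference of Tnf was -0.86 (95% interval -2.31 to 0.60) and had the other sign without saline mouse 2, while without saline mouse 1 it was -2.81. That of Ccl3 was -1.48 (95% interval -2.92 to -0.04) with both saline mice and 0.16 without saline mouse 2. Il1b, the cytokine of the inflammasome, read 0.80 and 2.39 with saline against 0.41, 0.98 and 1.42 with oleic acid, with a difference of -0.66. Without saline mouse 2 this was 0.14.

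By list, 8 of 14 measured cytokines and growth factors lay below 0, with a median difference of -0.38 that turned to 0.09 without saline mouse 2 and to 0.18 without both saline mouse 2 and oleic acid mouse 3. Of 23 measured chemokines 16 lay below 0, with a median of -0.11, against -0.09 over all features. In both lists 1 member was higher and 1 lower at an unadjusted p under 0.05, against 3.08% and 5.02% of all features. Mean chemokine levels were 0.06 and 1.29 on the saline arrays and 0.80, 0.60 and 0.35 on the oleic acid arrays, and other saline arrays lay between 0.41 and 0.83, so both saline mice of 4 h were outside the range of the other saline mice, on opposite sides. The median of the chemokines had the other sign without saline mouse 2, without both saline mouse 2 and oleic acid mouse 3, and after quantile normalization.

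Cxcl1 and Cxcl2 are neighbours on chromosome 5 and textbook targets of NF-kappaB. The 250 bases before their start sites are shown because both genes were high on the same array. They come from RefSeq (GRCm38.p6, plus strand) at chr5:90890995-90891244 for Cxcl1 and chr5:90903649-90903898 for Cxcl2, and capitals mark GGGAATTTCC, a match to the kappaB motif, searched on both strands as GGGA, any base and TTTCC.
Cxcl1: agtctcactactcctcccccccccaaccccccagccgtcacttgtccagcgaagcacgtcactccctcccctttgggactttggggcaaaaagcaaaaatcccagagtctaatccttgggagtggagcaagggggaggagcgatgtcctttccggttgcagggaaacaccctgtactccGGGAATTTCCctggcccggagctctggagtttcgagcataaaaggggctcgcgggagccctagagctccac
Cxcl2: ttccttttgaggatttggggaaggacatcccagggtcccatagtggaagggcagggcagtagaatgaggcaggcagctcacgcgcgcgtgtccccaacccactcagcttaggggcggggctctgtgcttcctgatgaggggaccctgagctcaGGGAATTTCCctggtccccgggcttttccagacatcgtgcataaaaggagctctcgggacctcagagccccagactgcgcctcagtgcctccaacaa
The motif occurred in 91 of 27025 promoters of this length (0.337%) and in 0 of the 14 measured chemokine genes with a promoter sequence. A match describes the letters in this window and says nothing on binding.

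Immediate early genes, which cells switch on within minutes of a stimulus, followed saline mouse 2 too. Fosb, a subunit of AP-1, read -0.86 and 2.59 on the saline arrays and -0.93, 0.61 and -1.21 on the oleic acid arrays. Nr4a1, an orphan nuclear receptor, read 3.15 and 5.64 on the saline arrays and 3.69, 3.85 and 3.65 on the oleic acid arrays. Both were highest in saline mouse 2, and the differences were -1.37 and -0.67, or 0.35 and 0.57 without it. With saline mouse 2 as the only control the difference of Fosb was -3.10. Of 24 measured immediate early genes 20 lay below 0, with a median of -0.23 that changed sign without saline mouse 2.

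Feedback inhibitors of NF-kappaB were also highest in saline mouse 2 for the genes described here. Nfkbia, the inhibitor that holds NF-kappaB in the cytoplasm, read 6.64 and 7.40 on the saline arrays and 5.88, 6.77 and 5.33 on the oleic acid arrays. The difference was -1.02 (95% interval -1.70 to -0.35, adjusted p = 0.602 in limma), and oleic acid mouse 2 lay above saline mouse 1. Tnfaip3, which edits ubiquitin to end the signal, read 0.37 and 2.24 with saline against 0.79, 0.94 and 0.28 with oleic acid. Of 19 such genes 14 lay below 0, with a median of -0.14, which was 0.08 without saline mouse 2 and 0.12 without both saline mouse 2 and oleic acid mouse 3.

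**Figure D3:**
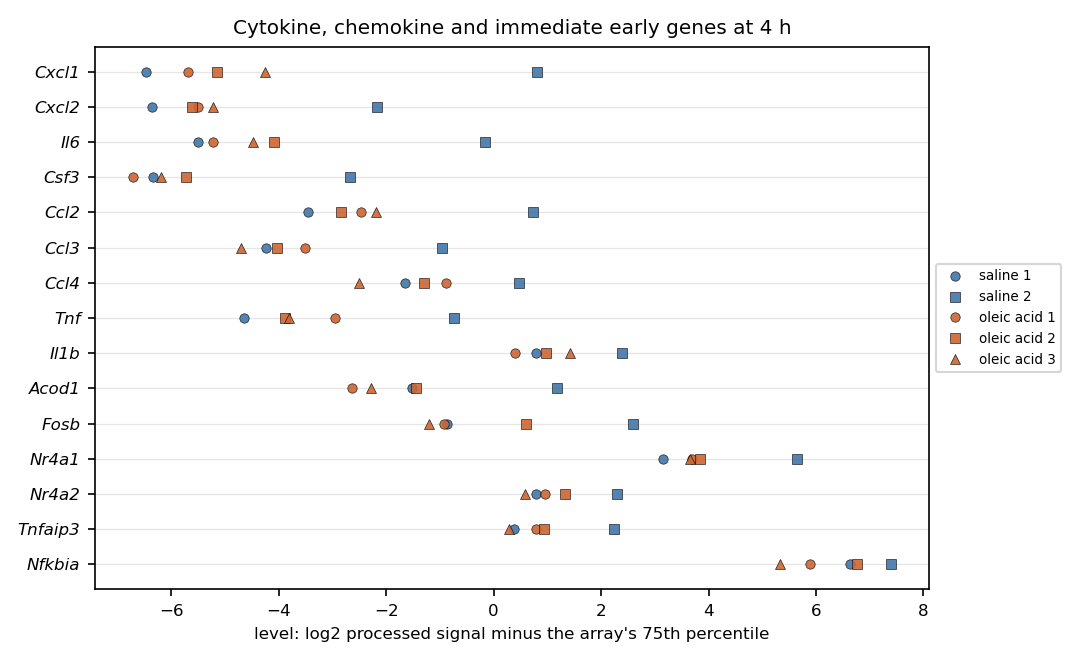
Level (log2 processed signal minus the array's 75th percentile) of 15 chemokine, cytokine, immediate early and NF-kappaB feedback genes, with 1 point per mouse. Saline mouse 2 is the highest of the 5 mice for Cxcl1 (0.81), Il6 (-0.16), Ccl2 (0.73), Tnf (-0.74) and Fosb (2.59).

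In the plot of inflammatory genes saline mouse 2 stands above the other 4 mice, whereas saline mouse 1 lies among or below the oleic acid mice. Beyond the cytokines, the largest gaps of saline mouse 2 above mouse 1 included Tnfrsf10b, Acod1, Rgs16, Spon2 and Muc13. Acod1, the enzyme of activated macrophages that makes itaconate, read -1.51 and 1.18 on the saline arrays and -2.63, -1.45 and -2.28 on the oleic acid arrays. Spon2, a secreted matrix protein, read 0.84 and 3.42 against 1.41, 2.55 and 0.80. For Spon2 and Muc13 oleic acid mouse 2 was the next highest. The largest gaps in the other direction included Doc2b, Hspa1a, Fkbp5 and Cyp2a4. Fkbp5, a target of glucocorticoid receptor, read 4.37 and 1.89 against 3.85, 3.27 and 4.12. Hspa1a, the inducible heat shock protein, read 0.53 and -2.34 against 0.65, -2.37 and 1.78, so saline mouse 2 and oleic acid mouse 2 were alike.

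Genes of fat cells had higher values with oleic acid, most of all in mouse 3. Of 38 measured markers 36 had a difference above 0, against 38.8% of all features, and the median was 0.76. At an unadjusted p under 0.05, 16 were higher, against 3.08% of all features, 15 did not overlap between the groups, against 7.76%, and 0 passed the adjusted threshold. Averaged over the list, levels were 1.26 and 0.65 on the saline arrays and 1.31, 1.71 and 2.65 on the oleic acid arrays. Other saline arrays lay between 0.90 and 2.05 and other oleic acid arrays between 0.56 and 1.72, so saline mouse 2 was below every other saline mouse and oleic acid mouse 3 above every other mouse. The median was 0.39 without oleic acid mouse 3, 0.48 without saline mouse 2 and 0.23 without both; against the saline mice of 1 to 4 h together it was 0.37. The part of fat tissue taken with the lungs in these values was not tested.

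Hormones of fat cells had the widest gaps. Adipoq, which encodes adiponectin, read -0.01 and -0.90 on the saline arrays and 0.98, 1.56 and 3.71 on the oleic acid arrays. The difference was 2.54 (95% interval 0.99 to 4.10, adjusted p = 0.58 in limma). Retn, which encodes resistin, read 0.91 and 0.21 on the saline arrays and 1.18, 2.23 and 3.94 on the oleic acid arrays, a difference of 1.89 (95% interval 0.57 to 3.21). For both hormones all 3 oleic acid mice lay above both saline mice. Cfd, the complement factor adipsin, read 4.13 and 3.22 on the saline arrays and 4.39, 5.08 and 6.70 on the oleic acid arrays.

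Proteins of the fat cell's lipid store behaved alike. Fabp4, which carries fatty acids in fat cells and in some endothelium, read 3.46 and 2.94 on the saline arrays and 3.80, 4.84 and 6.31 on the oleic acid arrays, a difference of 1.78 (95% interval 0.39 to 3.18). Plin1, which coats the lipid droplet of fat cells, read -0.88 and -1.61 on the saline arrays and -0.63, 0.41 and 1.98 on the oleic acid arrays. Oleic acid mouse 3 was the highest of 29 arrays for Adipoq, Retn, Cfd, Fabp4 and Plin1. Cidec, which enlarges lipid droplets, read 2.07 and 1.08 with saline against 1.69, 2.25 and 3.43 with oleic acid, and the groups overlapped; without saline mouse 2 and oleic acid mouse 3 its difference was -0.10.

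Genes of fatty acid synthesis, which fat cells and type 2 cells both use, had 14 of 20 members above 0, against 38.8% of all features, and a median of 0.39. There were 8 without overlap, all higher, against 7.76% of all features. At an unadjusted p under 0.05, 6 were higher, against 3.08% of all features, and 1 was lower, against 5.02%. Scd1, the desaturase that makes oleate itself from stearate, read 5.12 and 5.23 on the saline arrays and 5.72, 5.71 and 6.46 on the oleic acid arrays. Its difference was 0.79 (95% interval 0.24 to 1.34, adjusted p = 0.605 in limma). Fasn, fatty acid synthase, read 0.82 and 1.01 on the saline arrays and 1.18, 1.43 and 2.06 on the oleic acid arrays. Elovl6, which lengthens palmitate, read -0.29 and -0.62 on the saline arrays and -0.19, 0.42 and 2.06 on the oleic acid arrays. All 3 enzymes had every oleic acid mouse above both saline mice, and mouse 3 was again the highest.

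Genes of fatty acid uptake and storage had 22 of 33 measured members above 0, against 38.8% of all features, and 8 above both saline mice in every oleic acid mouse, against 7.76%. Their median was 0.23, which was -0.016 without both saline mouse 2 and oleic acid mouse 3. Cd36, the fatty acid translocase, read 3.68 and 3.52 with saline against 4.20, 3.98 and 4.32 with oleic acid, a difference of 0.57 (95% interval 0.07 to 1.07). Acsl1, which couples fatty acids to coenzyme A, read 2.41 and 2.04 with saline against 2.56, 2.45 and 3.69 with oleic acid, a difference of 0.68.

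Targets of PPARs had 24 of 34 members above 0, against 38.8% of all features, with a median of 0.15 that turned sign without saline mouse 2. There were 6 without overlap, all higher, against 7.76% of all features. Angptl4, a secreted inhibitor of lipoprotein lipase, read 6.71 and 5.31 on the saline arrays and 6.06, 5.78 and 5.97 on the oleic acid arrays. Pdk4, which turns mitochondria from glucose to fatty acids, read 2.55 and 1.74 on the saline arrays and 2.61, 2.47 and 2.36 on the oleic acid arrays. Plin2, the droplet coat of most cells, read 3.95 and 4.21 on the saline arrays and 4.08, 4.30 and 4.02 on the oleic acid arrays. The groups overlapped for each of these genes. Cpt1a, which admits fatty acids to the mitochondrion, read 3.12 and 2.63 with saline against 3.35, 2.66 and 3.24 with oleic acid and overlapped likewise. The 95% intervals were -1.42 to 1.29 for Angptl4, -0.64 to 1.31 for Pdk4, -0.39 to 0.50 for Plin2 and -0.28 to 0.70 for Cpt1a. A doubling of Plin2 or Cpt1a thus lies outside the interval, while one of Angptl4 or Pdk4 lies inside it. Against the saline mice of 1 to 4 h together the difference of Angptl4 was 1.14, in place of -0.07, and that of Pdk4 was 1.49, in place of 0.34. On saline arrays of other times Angptl4 ran from 1.94 to 5.36 and Pdk4 from -1.01 to 2.00. Saline mouse 1 of 4 h lay above both ranges, and saline mouse 2 lay near the upper end of each. The pooled saline mice differ from the oleic acid mice in hour too, so hour and treatment cannot be told apart in these values.

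**Figure D4:**
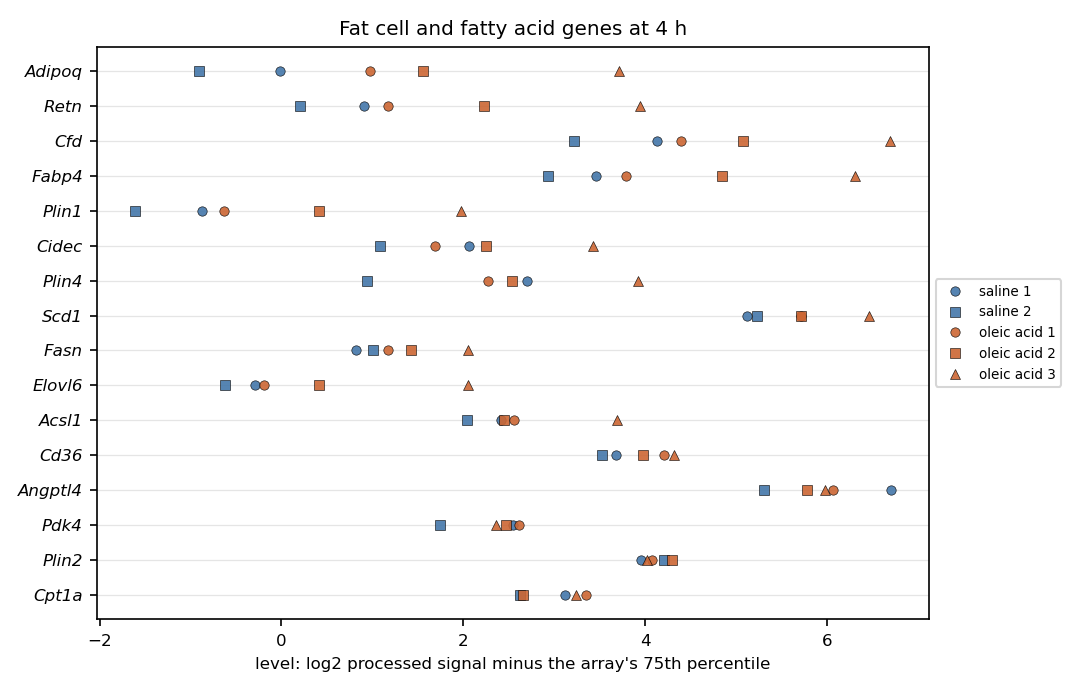
Level (log2 processed signal minus the array's 75th percentile) of 16 genes of fat cells, fatty acid synthesis, uptake and PPAR response, with 1 point per mouse. Adipoq runs from -0.90 in saline mouse 2 to 3.71 in oleic acid mouse 3, whereas Plin2 stays between 3.95 and 4.30 in all 5 mice.

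The plot of lipid genes shows oleic acid mouse 3 at the top for the fat cell hormones and synthesis enzymes, and mice of both groups mixed for Angptl4, Pdk4, Plin2 and Cpt1a.

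Neutrophil genes had lower values with oleic acid when both saline mice were kept. Of 32 measured markers 25 lay below 0 and 7 above, against 38.8% of all features above 0, with a median of -0.37. For 7 every oleic acid mouse lay below both saline mice, against 14.6% of all features. Without saline mouse 2 the median was -0.099, with 14 of 32 above 0, close to the median of -0.09 over all features with both saline mice. Retnlg, a secreted protein of neutrophils, read 3.34 and 4.13 on the saline arrays and 1.83, 2.88 and 2.61 on the oleic acid arrays, a difference of -1.29 (95% interval -2.24 to -0.35, adjusted p = 0.612 in limma). Mrgpra2b, a receptor on neutrophils, read -1.72 and -1.55 with saline against -3.13, -3.10 and -2.69 with oleic acid. Stfa2, a protease inhibitor of myeloid cells, read 0.60 and 1.72 with saline against -0.43, 0.48 and -0.01 with oleic acid. Averaged over these markers, levels were 0.55 and 1.30 on the saline arrays and 0.15, 0.78 and 0.61 on the oleic acid arrays; saline mouse 2, the mouse with high chemokines, was the highest. Monocyte and macrophage markers had 19 of 28 members above 0, with a median of 0.17.

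Natural killer and cytotoxic cell genes had higher values. Of 19 measured, 18 lay above 0, against 38.8% of all features, with a median of 0.54. There were 3 that did not overlap, each higher, against 7.76% of all features. Their mean was -1.06 and -0.29 on the saline arrays and 0.39, -0.13 and -0.66 on the oleic acid arrays, so oleic acid mouse 3 lay below saline mouse 2. Saline arrays of other times lay between -0.52 and 0.16, so saline mouse 1 and oleic acid mouse 3 lay below all of them. Over the settings run the median was 0.12 to 1.17, with 0.12 against the saline mice of 1 to 4 h together. Klrd1, a receptor of natural killer cells, read -0.80 and -0.48 on the saline arrays and 0.36, -0.06 and -0.23 on the oleic acid arrays, a difference of 0.66 (95% interval 0.23 to 1.09, adjusted p = 0.602 in limma). Klrb1c, known as NK1.1, read -1.51 and -0.94 with saline against 0.27, -0.27 and -0.85 with oleic acid. Gzmb, the protease granzyme B, read -1.39 and -0.88 with saline against 0.82, -0.70 and -0.93 with oleic acid. Here oleic acid mouse 1 was the highest of the 5 mice, and saline mouse 1 the lowest.

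Oleic acid mouse 1 was also apart in interferon gamma and genes it controls. Ifng read -4.70 and -3.07 on the saline arrays and -0.18, -3.03 and -4.18 on the oleic acid arrays. Igtp, a GTPase that interferon gamma switches on, read 2.10 and 2.26 on the saline arrays and 4.72, 2.08 and 3.35 on the oleic acid arrays. Gbp2, another such GTPase, read 1.34 and 2.09 with saline against 3.47, 1.97 and 2.38 with oleic acid. The groups overlapped for all 3 genes, since oleic acid mouse 2 lay at or below saline mouse 2 for Igtp and Gbp2 and oleic acid mouse 3 did so for Ifng. The wider interferon list had 14 of 29 members above 0 and a median of -0.02. Klrg1, a marker of mature killer cells, read -3.01 and -2.32 with saline and 0.0047, -2.41 and -2.77 with oleic acid. T and B cell markers had 10 of 21 and 9 of 17 members above 0, although Jchain, the joining chain of plasma cell antibodies, read -0.07 and -0.65 with saline against 0.15, 0.39 and 1.65 with oleic acid.

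Endothelial markers, the cells that oleic acid is known to injure, lay slightly below saline. Of 29 measured, 23 were below 0, with a median of -0.24 against -0.09 over all features. For 8 every oleic acid mouse lay below both saline mice, against 14.6% of all features, and 4 were lower at an unadjusted p under 0.05, against 5.02%. Icam2, an adhesion protein of resting endothelium, read 6.36 and 6.30 on the saline arrays and 6.02, 5.84 and 5.87 on the oleic acid arrays. Its difference was -0.42 (95% interval -0.72 to -0.12, adjusted p = 0.612 in limma). Acvrl1, a receptor of the BMP family on arteries, read 5.49 and 5.65 on the saline arrays and 4.86, 5.42 and 4.78 on the oleic acid arrays. Robo4, a receptor that steadies vessel walls, read 4.54 and 4.78 with saline against 4.09, 4.48 and 4.06 with oleic acid. Pecam1, the junction protein CD31, read 2.17 and 1.96 on the saline arrays and 2.68, 2.05 and 2.17 on the oleic acid arrays, and the groups overlapped. For Cdh5, the cadherin of endothelial junctions, the saline mice at 4.65 and 4.80 lay inside the range of the oleic acid mice. The difference of Pecam1 was 0.24. Emcn, the sialomucin endomucin of capillaries and veins, read -0.16 and 1.33 with saline against 1.31, 1.05 and 0.68 with oleic acid, and the groups overlapped. Ednrb, an endothelin receptor, lay above both saline mice in every oleic acid mouse and differed by 0.59. For Acvrl1 and Robo4 the lowest values came from oleic acid mice 1 and 3, those with the brighter arrays. Endothelial adhesion genes, which inflamed vessels display, had 4 of 13 members above 0 and a median of -0.05.

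Pericyte and smooth muscle markers repeated that split. Higd1b, a pericyte gene, read 4.67 and 4.70 on the saline arrays and 3.93, 4.39 and 3.61 on the oleic acid arrays, and Cspg4, a pericyte proteoglycan, read 1.70 and 1.65 with saline against 0.93, 1.62 and 0.91 with oleic acid. The list had 11 of 15 members below 0 and a median of -0.29. Rgs5, found in pericytes and described above, differed the other way, by 1.40. Alveolar type 1 markers had 15 of 18 below 0, with a median of -0.17 and differences from -0.61 to 0.83. Without overlap 2 were higher, against 7.76% of all features, and 5 lower, against 14.6%. Ager, the receptor RAGE of type 1 cells, read 6.28 and 5.74 with saline against 5.84, 5.82 and 5.56 with oleic acid. The groups overlapped for Ager. Hopx, a homeobox factor of these cells, read 7.09 and 7.05 with saline against 6.61, 6.89 and 6.57 with oleic acid, and Spock2, a matrix proteoglycan, read 3.64 and 3.68 with saline against 2.89, 3.41 and 2.85 with oleic acid. The medians of these lists are to be read against -0.17, the median of the 5245 features with the highest levels. After quantile normalization the median was 0.0019 for type 1 markers, -0.18 for endothelial markers and -0.11 for pericyte and smooth muscle markers.

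Type 2 markers had 11 of 27 members above 0 and a median of -0.03. Club and goblet cell markers had 21 of 26 above 0 with a median of 0.14, which was -0.0074 without saline mouse 2 and -0.040 without both saline mouse 2 and oleic acid mouse 3. Bpifa1, a secreted airway defence protein, read 4.57 and 4.14 with saline against 5.22, 5.88 and 5.81 with oleic acid, above both saline mice in all 3. Ciliated cell markers had 10 of 31 above 0, with a median of -0.07. Genes of cell junctions and of ion and water transport, which seal and dry the alveolus, had medians of -0.04 and -0.07.

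Stress genes gave a few members with higher values. Their list medians lay between -0.20 (unfolded protein and integrated stress response) and 0.05 (hypoxia). Hmox1, the heme oxygenase that Nrf2 and free heme induce, read 1.52 and 1.94 on the saline arrays and 2.30, 2.65 and 2.66 on the oleic acid arrays. Its difference was 0.81 (95% interval 0.18 to 1.44, adjusted p = 0.614 in limma). Slc7a11, the cystine importer, read -4.78 and -6.09 with saline against -3.74, -4.54 and -2.71 with oleic acid, above background on 0 of 2 saline arrays, which gives at least 1.46-fold more. In all, 15 of 27 Nrf2 targets lay above 0, with a median of 0.03. Of them 5 did not overlap, against 7.76% of all features. Against the saline mice of 1 to 4 h together 24 of 27 Nrf2 targets lay above 0, with a median of 0.25. Their mean was 3.12 and 2.94 on the saline arrays of 4 h, above every other saline array, at 2.45 to 2.91. Hour and treatment therefore cannot be told apart in the pooled comparison. Ero1a, an oxidase of the endoplasmic reticulum that hypoxia induces, read -2.92 and -2.64 with saline against -1.58, -2.33 and -1.23 with oleic acid, while 22 hypoxia genes had a median of 0.05. Genes of the unfolded protein and integrated stress response had 7 of 21 above 0. Ppp1r15a, which ends that response, read 4.08 and 4.66 with saline against 3.53, 4.23 and 3.34 with oleic acid, opposite in sign to Chac1 of the same response. Heat shock genes had a median of -0.14.

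Ptgs2, the inducible cyclooxygenase that makes prostanoids, read -1.10 and -1.09 on the saline arrays and -0.18, -0.87 and -0.07 on the oleic acid arrays, a difference of 0.73 (95% interval 0.14 to 1.31). It stood against the prostanoid and leukotriene list, in which 8 of 20 were above 0. Alox15, a lipoxygenase of eosinophils and resident macrophages, read -3.74 and -3.42 with saline and -2.44, -2.70 and 0.44 with oleic acid. Fibroblast markers had 8 of 24 above 0, against 38.8% of all features, with a median of -0.15 that was 0.029 after quantile normalization. Without overlap 4 were higher, against 7.76% of all features, and 7 lower, against 14.6%. Lum, a matrix proteoglycan, read -0.65 and -0.87 with saline against -0.07, 0.05 and 0.22 with oleic acid. Lox, which crosslinks collagen, read -0.39 and -0.65 with saline against 0.47, 0.02 and 0.52 with oleic acid. Both lay above saline in all 3 oleic acid mice. Mesothelial markers, the lining of the lung's surface, had 12 of 18 above 0. Bnc1, a factor of mesothelium, read -3.67 and -3.96 with saline against -2.54, -3.52 and -1.66 with oleic acid and was highest in oleic acid mouse 3. Prg4, which lubricates serous surfaces, read -2.27 and -1.91 against -1.14, -1.25 and 1.57, with mouse 3 again the highest.

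Genes of liver followed other mice. Of 14 measured markers 13 lay above 0, against 38.8% of all features, with a median of 1.24, and 7 lay above both saline mice in every oleic acid mouse, against 7.76%. Their mean was 1.08 and -0.12 on the saline arrays and 1.03, 2.18 and 1.47 on the oleic acid arrays, and other saline arrays reached from 0.65 to 5.57, so saline mouse 2 lay below all of them. Alb, serum albumin, read 1.90 and 0.52 on the saline arrays and 2.91, 3.65 and 3.22 on the oleic acid arrays, and Ttr, the transthyretin carrier, read -0.72 and -1.87 with saline against -0.11, 1.23 and 0.08 with oleic acid. Against the saline mice of 1 to 4 h together the median of the list was -0.66 and the difference of Alb was -0.46, both opposite in sign. G6pc, which releases glucose in liver and kidney, read -1.88 and -3.05 with saline and -2.21, 1.36 and -1.98 with oleic acid, high in mouse 2 alone. The part of other tissue in the samples was not tested.

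**Figure D5:**
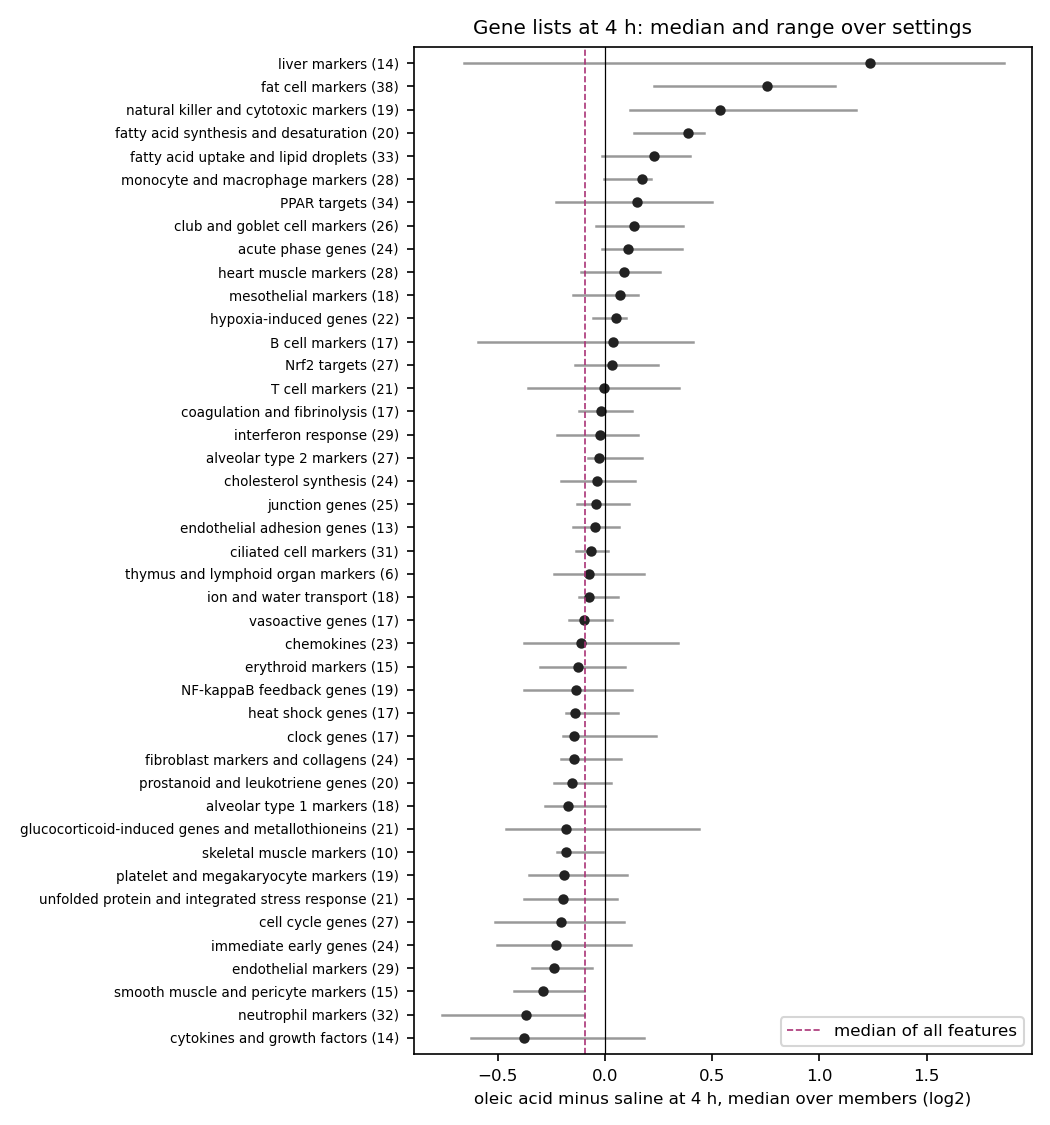
Median difference, oleic acid minus saline at 4 h on the log2 scale (x axis), of each of the 43 gene lists (points), with the range of that median over 25 other settings and left-out mice (lines). Fat cell markers stay above 0, from 0.23 to 1.07, and neutrophil markers below 0, from -0.76 to -0.10. The upper end for neutrophil markers is near -0.09, the median of all features.

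The plot of list medians shows that most lists lie close to the median of all features, -0.09. Acute phase genes, glucocorticoid and clock genes, cholesterol synthesis, coagulation, vasoactive genes, markers of red cells, platelets, muscle and thymus, and cell cycle genes had medians from -0.20 (cell cycle) to 0.11 (acute phase). In all, 7 of 43 lists kept their sign under every setting run. Liver markers had the highest median and also one of the ranges that crossed 0.

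To ask whether the response at 4 h differed from the earlier hours, the difference at 4 h was set against the mean difference at 1, 1.5 and 3 h in the same fit. Of 26225 features 1 was higher (0.00381%) and 1 lower (0.00381%) at an adjusted p under 0.05, and 1087 (4.14%) had an unadjusted p under 0.05 in either direction. The lower one was A_55_P1960246, described above, at -2.64 (adjusted p = 0.0385 in limma). The higher one was A_30_P01026626, a probe for an unnamed intergenic RNA at 63480514 to 63480573 of chromosome 18 (mm9). It read -6.34 and -6.27 on the saline arrays and -3.84, -3.69 and -3.21 on the oleic acid arrays. The effect at 4 h exceeded the earlier effect by 3.49 (adjusted p = 0.0425 in limma), and the difference at 4 h alone was 2.72 (adjusted p = 0.0591 in limma). It was above background on 0 of 2 saline and 2 of 3 oleic acid arrays, and at other times on 15 of 24 arrays, with levels from -6.32 to -2.90. Both differences therefore rest in part on values not above background and are no exact sizes: at 4 h the bounds are at least 1.55-fold higher for A_30_P01026626 and at least 2.13-fold lower for A_55_P1960246 with oleic acid. The oleic acid mice of 4 h were inside the range of other times and the saline mice at its lower end. Without saline mouse 1 the count of features in this comparison was 17, without saline mouse 2 it was 1, without oleic acid mouse 1 it was 8, without mouse 2 it was 6 and without mouse 3 it was 0. Neither probe passed without saline mouse 1 (adjusted p = 0.0777 for A_30_P01026626 and 0.0792 for A_55_P1960246 in limma), without saline mouse 2 (0.127 and 0.078) or without oleic acid mouse 3 (0.275 and 0.209), so the counts without either saline mouse were of other features.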

How the data were processed

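Each lung gave 200 ng of RNA for an Agilent array with a single Cy3 channel. Per the file headers, the deposited scanner files hold an intensity for each spot, from Feature Extraction software (version 10.5.1.1), which had corrected it for background. The authors' deposited table holds log2 values whose normalization is not given in the sources used here; it served as an alternative.

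Groups followed the labels. The processed signal was put on the log2 scale, the 75th percentile of each array was subtracted, outlier spots were left out and spots of a probe were averaged. Probes well above background on at least 2 of the 5 arrays of 4 h were kept, and a gene took its kept probe with the highest mean. In limma 3.58.1 (R 4.3.3, statmod 1.5.0 and the data.table package, version 1.17.8) 12 group means of treatment and time were fitted on 29 arrays. An oleic acid array of 1.5 h and one of 3 h were left out, with spike-in slopes of 1.66 and 0.751. P-values were adjusted by Benjamini-Hochberg over 26225 features (threshold 0.05); intervals are moderated 95% intervals. Nothing in the labels says that mice of a group were separate in cage or day, so p-values measure the spread between these samples.

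A fold given as "at least" sets the mean of the brighter group against the background limit of the dimmer group. Named genes were the 12 highest and 12 lowest by unadjusted p without overlap and with a difference of at least 0.5, up to 5 members of each of 43 lists by p with defining members, and the 8 largest gaps between mice in each direction. The members and lists were chosen with earlier results of these data known. Of the lists' genes, 861 were measured. Fits were tested on simulated data.

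Alternatives were other background correction, scaling, filters, slide terms, a replicate block, moderation, weights, control groups and each mouse left out.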

Additional observations from a re-analysis of the deposited data

Results flagged for a closer look

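A pair of unnamed probes passed the adjusted threshold in the test of 4 h against the earlier hours. As given above, neither call held without oleic acid mouse 3 or without either saline mouse. For A_30_P01026626 the oleic acid effect at 4 h exceeded the mean effect at 1, 1.5 and 3 h by 3.49 on the log2 scale (limma, adjusted p = 0.0425). For A_55_P1960246 it was -2.64 (limma, adjusted p = 0.0385). These are no exact sizes. A_30_P01026626 was above background on 0 of 2 saline arrays of 4 h, and A_55_P1960246 on 0 of 3 oleic acid arrays of 4 h and on 0 of the 24 arrays of other times. Each thus passed the filter only through the group in which it was higher, the oleic acid arrays for A_30_P01026626 and the saline arrays for A_55_P1960246. At 4 h the bounds are at least 1.55-fold higher and at least 2.13-fold lower with oleic acid, and after normexp background correction the 2 values were 0.65 and -0.91. With groups of 2 and 3 mice at 4 h, single mice were not tested for lying apart.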

How the results depend on the processing

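With groups of 2 and 3 mice the count of calls moved with most choices, and the cause was not tested. The count at 4 h, 1 as reported, was 0 with all 31 arrays, with the 5 arrays of 4 h, with the 8 arrays of the slide, with normexp, with median centring, with probes above background on all 5 arrays and with a robust trend. It was 2 after quantile normalization, 3 with array weights, 5 at an adjusted p under 0.1, 6 in the authors' deposited table, 13 with slide as a fixed term and 18 with the saline mice of 1 to 4 h together. Leaving out each mouse gave 1 to 28. Leaving out saline mouse 2 and oleic acid mouse 3 gave 2, and leaving out arrays of other times with over 70% of spots above background, chosen after seeing the data, gave 3. The difference from the earlier hours, 2 as reported, gave 0 with all 31 arrays, normexp, median centring, no filter, all 5 arrays above background, slide as a fixed term and a robust trend, 1 with a filter over the 12 groups and without both mice, 0 without the arrays over 70%, and 0 to 17 without each mouse. Replicate numbers were not taken to pair the mice, since only 7 of 12 pairs had a correlation over 0.1 (range -0.81 to 0.73), and with the replicate block both counts were 0.

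The call of A_55_P1960246 held without each mouse and was lost with all 31 arrays, the 5 or 8 arrays alone, normexp, median centring, the replicate block, a robust trend and the pooled saline mice. Naa15 passed in the deposited table (adjusted p = 0.0436 in limma), with slide as a fixed term (adjusted p = 0.0018 in limma) and with array weights (adjusted p = 0.0159 in limma). Tyw3, Ube2q2 and A_30_P01026626 passed with slide as a fixed term (adjusted p = 0.0493 each in limma), and Adamts9 and Zfp41 against the pooled saline mice (adjusted p = 0.0124 and 0.00697 in limma). Over 86 results for single features, with 2131 values under alternatives, 36 values turned sign. The unnamed probes A_30_P01026626 and A_55_P1960246 enter these results for both comparisons. Against the pooled saline mice these were Rgs9 at 0.018, Angptl4 at 1.14, Gbp2 at -0.047, Hopx at 0.0093, Alb at -0.46, Ttr at -0.72 and Serpina1a at -0.71. In the authors' deposited table they were Angptl4 at 0.13, Sftpc at 0.048 and Scgb1a1 at 0.013. Angptl4 was also 0.16 after quantile normalization and 0.00737 with array weights. Over the fits without each mouse, or without both saline mouse 2 and oleic acid mouse 3, values ran from -3.23 to 0.95 for Ccl2, -3.13 to 0.47 for Ccl3, -2.03 to 0.56 for Ccl4, -2.81 to 1.23 for Tnf, -1.46 to 0.14 for Il1b, -3.10 to 0.70 for Fosb, -1.92 to 0.61 for Nr4a1, -1.57 to 0.49 for Tnfaip3, -0.099 to 1.38 for Cidec, -0.78 to 0.63 for Angptl4, -0.068 to 0.74 for Pdk4, -0.077 to 0.24 for Plin2 and -0.11 to 0.45 for Cpt1a. For the 8 inflammatory genes the values above 0 came without saline mouse 2. Dim genes such as Tyw3 and Slc7a11 have only a bound, since their signal over background limits them. Tnf, Ccl3, Ifng, Map2 and Bnc1 were likewise not well above background on all 5 arrays of 4 h. Their differences are no exact sizes either.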
